A study of Mus musculus with 594 samples.

Results

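The genes described here encode 8 enzymes of the last stretch of cholesterol synthesis, from the closing of the sterol rings to cholesterol itself: Lss, Cyp51, Msmo1, Nsdhl, Hsd17b7, Sc5d, Dhcr7 and Ebp. They were chosen by name, and all 8 were present among the 11807 genes measured, through 12 of the 22716 probe sets. Cells of 2 mouse pancreatic tumour lines had been treated with 29 chromatin-targeting compounds or with their solvent DMSO for 1, 6 or 24 h, and RNA was read on 594 Affymetrix arrays (299 of αTC1 and 295 of βTC3). αTC1 is a glucagon-producing line and βTC3 an insulin-producing line, both from tumours of mice that carry a viral T antigen under the promoter of that hormone, so no untransformed cell was measured. Among the compounds were 8 histone deacetylase inhibitors of the hydroxamic acid class (SAHA at 1.3 µM, trichostatin A at 0.22 µM, LBH-589 at 0.015 µM, PXD101 at 2.4 µM, ITF-2357 at 10 µM, CRA-024781 at 1.5 µM, pyroxamide at 10 µM and scriptaid at 2 µM). There were 3 ortho-amino anilides (MS-275 at 2.9 µM, CI-994 at 10 µM and MGCD-0103 at 1.1 µM) and 2 cyclic tetrapeptides (apicidin at 1.4 µM and HC-toxin at 0.12 µM). The others were the histone methyltransferase inhibitors BIX-01294 (10 µM) and chaetocin (1.7 µM), AMI-1 (10 µM), 3 DNA methylation inhibitors and 10 compounds known only by code. The DNA methylation inhibitors were 5-azadeoxycytidine, zebuarine and RG-0108 (each 10 µM). The coded compounds were BRD5298, BRD8451 and BRD9773 (each 10 µM), BRD6929 (0.91 µM), BRD-A94377914 (3 µM) and BRD-K17311666 (4.3 µM). With them were BRD-K22912318 (5 µM), BRD-K90919562 (4.1 µM), BRD-K92415738 (3.2 µM) and BRD-K62233722 (3.7 µM), the last being described most fully. Each compound had 3 arrays per line and time, except at 24 h in αTC1, where 5 compounds had 2 arrays and chaetocin had 4. DMSO had 14 arrays at each time in αTC1, and 12, 10 and 12 arrays at 1, 6 and 24 h in βTC3.

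Cholesterol is built from acetyl-CoA by way of mevalonate and squalene, and every nucleated animal cell can make it. When membrane sterol is low, SREBP transcription factors are released to the nucleus and raise nearly all genes of the route together with the genes for sterol uptake, acting with the CCAAT-binding factor NF-Y and with Sp1. In beta cells both a shortage and an excess of cholesterol are known to disturb secretory granules and insulin release.

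Lss, lanosterol synthase, closes oxidosqualene to the first sterol, lanosterol, and Cyp51 takes the first methyl group off it. Msmo1, Nsdhl and Hsd17b7 act in sequence to remove the remaining paired methyl groups, as oxidase, decarboxylating dehydrogenase and ketone reductase. Ebp then moves a double bond in the ring, Sc5d adds another, and Dhcr7 makes the last reduction to cholesterol. The genes lie apart from each other in the RefSeq mouse annotation (GRCm38.p6): Hsd17b7 at chr1:169949535-169969242, Cyp51 at chr5:4080674-4104697, Dhcr7 at chr7:143823167-143848410, Msmo1 at chr8:64718123-64733578, Sc5d at chr9:42251592-42264300, Lss at chr10:76531565-76557139, Ebp at chrX:8185329-8193512 and Nsdhl at chrX:72918521-72958528.

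Since most of these genes moved together, the start regions of 4 of them are shown, each from 250 bases before to 50 bases after a RefSeq transcript start and read 5′ to 3′ on the gene's strand. Capitals mark CCAAT on either strand, the letters that NF-Y is known to bind, so ATTGG is the same element read on the other strand. Msmo1 and Dhcr7 are shown because they moved in most comparisons below, Hsd17b7 because it separated the compound classes most, and Cyp51 because it often went the other way. The windows are Msmo1 at chr8:64733529-64733828 (minus strand), Hsd17b7 at chr1:169969156-169969455 (minus strand), Cyp51 at chr5:4104648-4104947 (minus strand) and the last of 3 Dhcr7 windows at chr7:143829964-143830263 (plus strand).
Msmo1: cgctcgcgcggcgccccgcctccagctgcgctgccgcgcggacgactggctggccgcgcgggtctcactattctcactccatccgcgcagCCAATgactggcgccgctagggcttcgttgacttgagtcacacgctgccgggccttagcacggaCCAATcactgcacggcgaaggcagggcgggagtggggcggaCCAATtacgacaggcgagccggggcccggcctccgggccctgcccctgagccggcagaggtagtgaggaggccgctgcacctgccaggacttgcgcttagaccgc
Hsd17b7: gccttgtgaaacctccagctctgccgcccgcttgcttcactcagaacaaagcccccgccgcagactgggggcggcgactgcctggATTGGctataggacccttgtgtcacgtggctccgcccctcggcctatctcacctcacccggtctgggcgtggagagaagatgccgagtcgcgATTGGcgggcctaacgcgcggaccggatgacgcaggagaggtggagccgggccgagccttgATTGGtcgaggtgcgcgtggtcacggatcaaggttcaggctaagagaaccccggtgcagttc
Cyp51: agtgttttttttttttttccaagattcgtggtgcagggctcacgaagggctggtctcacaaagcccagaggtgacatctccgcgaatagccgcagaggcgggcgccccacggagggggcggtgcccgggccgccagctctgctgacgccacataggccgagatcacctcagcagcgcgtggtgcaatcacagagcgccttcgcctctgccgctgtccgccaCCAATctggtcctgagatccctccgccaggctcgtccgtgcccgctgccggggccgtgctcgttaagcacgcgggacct
Dhcr7: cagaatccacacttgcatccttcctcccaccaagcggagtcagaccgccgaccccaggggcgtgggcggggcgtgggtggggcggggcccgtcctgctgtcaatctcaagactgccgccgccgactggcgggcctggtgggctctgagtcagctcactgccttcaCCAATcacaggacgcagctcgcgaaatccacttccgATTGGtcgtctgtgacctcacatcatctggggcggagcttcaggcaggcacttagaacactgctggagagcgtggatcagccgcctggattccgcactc
All 8 genes matched the promoter table, with 10 windows in all because Dhcr7 had 3. CCAAT was present on either strand in 8 of the 10 windows and in at least 1 window of each of the 8 genes, against 37.4% of all 32851 promoter windows of that length. Dhcr7 windows 1 and 2 held none, so the window shown is the only Dhcr7 window with CCAAT. The 37.4% is a share of single windows, while Dhcr7 could be counted through any of 3. Msmo1 and Hsd17b7 held 3 each and Nsdhl 4, while Lss, Cyp51 and Sc5d held 1 each. The letters GGGCGG, a core that Sp1 is known to bind, were present on either strand in 9 of the 10 windows and in 35.7% of all promoters. TCANNCCAC (N for any base), a loose spelling of the sterol regulatory element, was found on either strand in none of the 10 windows and in 4.18% of all promoters. No CCAAT match overlapped a GGGCGG match in these windows. These matches describe letters only.

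Levels are log2 of the deposited RMA intensities, and each gene was read through its probe set with the highest mean. Changes are log2 differences from DMSO of the same line and time with the batch in the fit, given ± SE, and a gene is called changed at a limma p under 0.05 after Benjamini-Hochberg adjustment over all 11807 genes. The p-values measure only the spread between arrays, which may be technical, since nothing in the labels says that arrays came from separate cultures. The RNA is from whole wells, so fewer cells of a kind and less RNA per cell cannot be told apart. No array repeated another, replicates correlated at 0.962 to 0.997, and array medians lay between 4.36 and 4.73. Gcg, Irx1 and Irx2 were higher on every αTC1 array than on any βTC3 array. Ins2, Pdx1 and Pcsk1 were lower on every αTC1 array, as the line labels would have it. Pou3f4, G6pc2 and Nkx6-1 overlapped between the lines over all arrays, and Slc2a2 was near background in both lines. In DMSO βTC3 also had signal of Sst (median 12.7) and Gcg (9.57), beside Ins2 (13.3). Among 299 αTC1 arrays 8 had Ins2 between 7.20 and 9.63, above the other αTC1 arrays (2.82 to 6.96) and below every βTC3 array (at least 12.8). Of these, the DMSO array at 6 h and the apicidin and ITF-2357 arrays at 24 h were left out of the fits at those times. The same 53 of 53 calls on the 8 genes were then made. They were calls for hydroxamic acids, anilides, the difference of these classes, BIX-01294, chaetocin and BRD-K62233722. Comparisons of apicidin or ITF-2357 alone, pairs at 10 µM and cyclic tetrapeptides were not refitted. The other arrays with high Ins2 were at 1 h, and the DMSO comparisons that use them were not refitted. Pancreatic exocrine, duct, stromal, endothelial and blood markers summed to 64.5 to 77.6 intensity units on αTC1 arrays with hydroxamic acids at 6 h and to 63.6 to 74.9 on αTC1 arrays with DMSO.

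In DMSO alone the level of most of these genes climbed over the day in both lines. At 6 h Nsdhl and Ebp were the highest of the 8 in αTC1 (8.49 ± 0.46 and 8.29 ± 0.12, SD, n = 14) and Sc5d the lowest (6.01 ± 0.29). In βTC3 Ebp and Msmo1 were the highest (9.01 ± 0.15 and 8.96 ± 0.57, n = 10) and Lss the lowest (5.04 ± 0.66), near the median over all genes (5.01). Probe sets differ in how strongly they bind, so this order is of signals and not of transcripts. Lss was the one member clearly stronger in the glucagon line, with an αTC1 minus βTC3 difference of 2.11 ± 0.12, 1.69 ± 0.18 and 1.50 ± 0.14 at 1, 6 and 24 h, where 29%, 30.1% and 30.7% of all genes were higher in αTC1. Its 1 h levels averaged 6.48 ± 0.37 in αTC1 and 4.42 ± 0.44 in βTC3 (SD, n = 14 and 12), with no overlap between the lines. The share of all genes that separated the lines so was not counted. Lss had a single probe set, whose DMSO levels in βTC3 reached down to 3.40, below the median over all genes (5.01). Cyp51, Ebp, Sc5d and Msmo1 were lower in αTC1 at all 3 times, with differences of -1.15, -0.72, -0.92 and -0.87 at 6 h. The shares of all genes lower in αTC1 were 29.9%, 28.5% and 28.9% at 1, 6 and 24 h. Nsdhl, Hsd17b7 and Dhcr7 were called at none of the 3 times.

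Between 1 h and 24 h in DMSO, 6 of the 8 genes rose in αTC1 (4.83% of all genes rose) and 7 rose in βTC3 (6.64% of all genes rose). Msmo1 rose most, by 0.83 ± 0.18 in αTC1 and 1.18 ± 0.12 in βTC3 (24 h minus 1 h). In βTC3 Lss rose by 1.13 ± 0.16, Cyp51 by 0.78 ± 0.08, Nsdhl by 0.68 ± 0.10, Dhcr7 by 0.62 ± 0.11, Sc5d by 0.61 ± 0.08 and Hsd17b7 by 0.32 ± 0.10. In αTC1 the same genes gave 0.56 ± 0.12 for Lss, 0.53 ± 0.12 for Cyp51, 0.54 ± 0.10 for Nsdhl, 0.42 ± 0.10 for Dhcr7 and 0.31 ± 0.08 for Sc5d, while Hsd17b7 (0.05) was not called. Ebp was called in neither line. By 6 h the rise was called for Nsdhl in αTC1 (0.50; 1.54% of all genes rose) and for Msmo1 (0.55), Cyp51 (0.40) and Sc5d (0.37) in βTC3 (1.24%), but without a batch term the count at 6 h was 0 in both lines. Because the baseline itself moved, every compound below is set against DMSO of its own time.

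**Figure D1:**
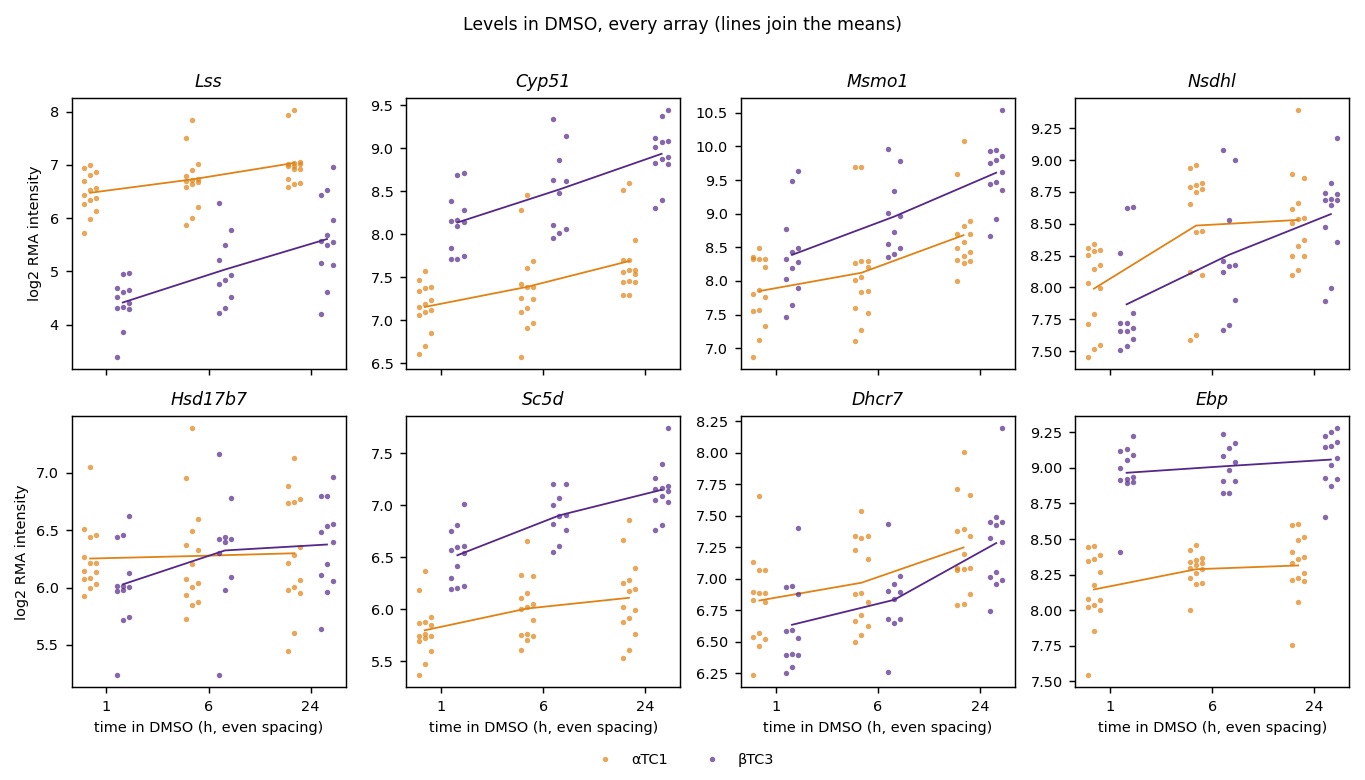
Log2 RMA intensity of the 8 genes on every DMSO array at 1, 6 and 24 h (x axis, even spacing), αTC1 in orange and βTC3 in purple, with lines joining the means. Lss lies higher in αTC1, Cyp51, Ebp and Sc5d lie lower there, and Msmo1 climbs with time in both lines by 0.83 in αTC1 and 1.18 in βTC3.

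At 1 h none of the 8 genes was called for any of the 29 compounds in either line. Few genes of any kind were: the share called in either direction ran from 0% to 0.11% over the compounds in αTC1 and from 0% to 0.678% in βTC3. For the 8 hydroxamic acids as a class, with 24 arrays per line, it was 0.593% in αTC1 and 0.906% in βTC3, again with none of the 8 genes.

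At 6 h hydroxamic acids raised 5 of the 8 genes in both lines: Dhcr7, Msmo1, Hsd17b7, Lss and Nsdhl. In αTC1 Dhcr7 lay between 7.75 and 9.38 (median 8.28) on the 24 arrays with hydroxamic acids, against 6.50 to 7.54 (median 6.88) on the 14 DMSO arrays. All 24 treated arrays were above all DMSO arrays, and the change was 1.35 ± 0.11 (2.56-fold, limma adjusted p = 3.26e-19). How many of all genes separated so fully was not counted. Msmo1 in αTC1 lay between 8.89 and 10.53 (median 9.53) with hydroxamic acids, against 7.10 to 9.70 (median 8.04) with DMSO. The groups overlapped through 2 DMSO arrays of 1 batch at 9.70, the other 12 being at most 8.29, and the change with batch in the fit was 1.32 ± 0.09 (limma adjusted p = 1.34e-22). Hsd17b7 in αTC1 ran from 6.60 to 8.62 (median 7.43) with hydroxamic acids, against 5.73 to 7.39 (median 6.14) with DMSO, a change of 1.08 ± 0.08. Lss ran from 6.88 to 8.72 (median 7.84), against 5.88 to 7.84 (median 6.71) with DMSO, a change of 0.97 ± 0.08. Nsdhl moved least of the 5, by 0.47 ± 0.06, and its groups overlapped over much of their range (8.48 to 9.83, against 7.59 to 8.96 with DMSO).

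Cyp51, Sc5d and Ebp stayed uncalled in αTC1, at 0.06, -0.02 and -0.10, so that the first demethylase of the route parted from the enzymes on either side of it. The hydroxamic acids moved very many genes at 6 h in αTC1, 26.6% of all genes higher and 24.3% lower, and a count of 5 of 8 higher is to be read against that. The median change over the 8 genes was 0.72, against -0.01 over all genes.

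In βTC3 the gene that moved most was Hsd17b7, which lay between 6.73 and 8.96 (median 8.06) on the 24 hydroxamic acid arrays, against 5.24 to 7.16 (median 6.41) on the 10 DMSO arrays. Its change was 1.78 ± 0.09 (3.43-fold, limma adjusted p = 1.06e-27), and its treated arrays reached below the highest DMSO array. Dhcr7 lay between 7.28 and 8.78 (median 7.88), against 6.26 to 7.44 (median 6.87) with DMSO, and changed by 1.04 ± 0.10. Msmo1 changed by 0.98 ± 0.08, Lss by 0.75 ± 0.11 and Nsdhl by 0.62 ± 0.07. Each of these 3 overlapped with DMSO, Lss for example at 4.90 to 6.57 with hydroxamic acids and 4.22 to 6.29 with DMSO. Cyp51 fell slightly, by 0.17 ± 0.05 (limma adjusted p = 0.00727), at 7.85 to 8.99 with hydroxamic acids and 7.96 to 9.34 with DMSO, while Sc5d (-0.14) and Ebp (0.15) were not called. In βTC3 26.2% of all genes were higher and 24% lower, and the median change was 0.69 over the 8 genes and -0.01 over all genes.

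**Figure D2:**
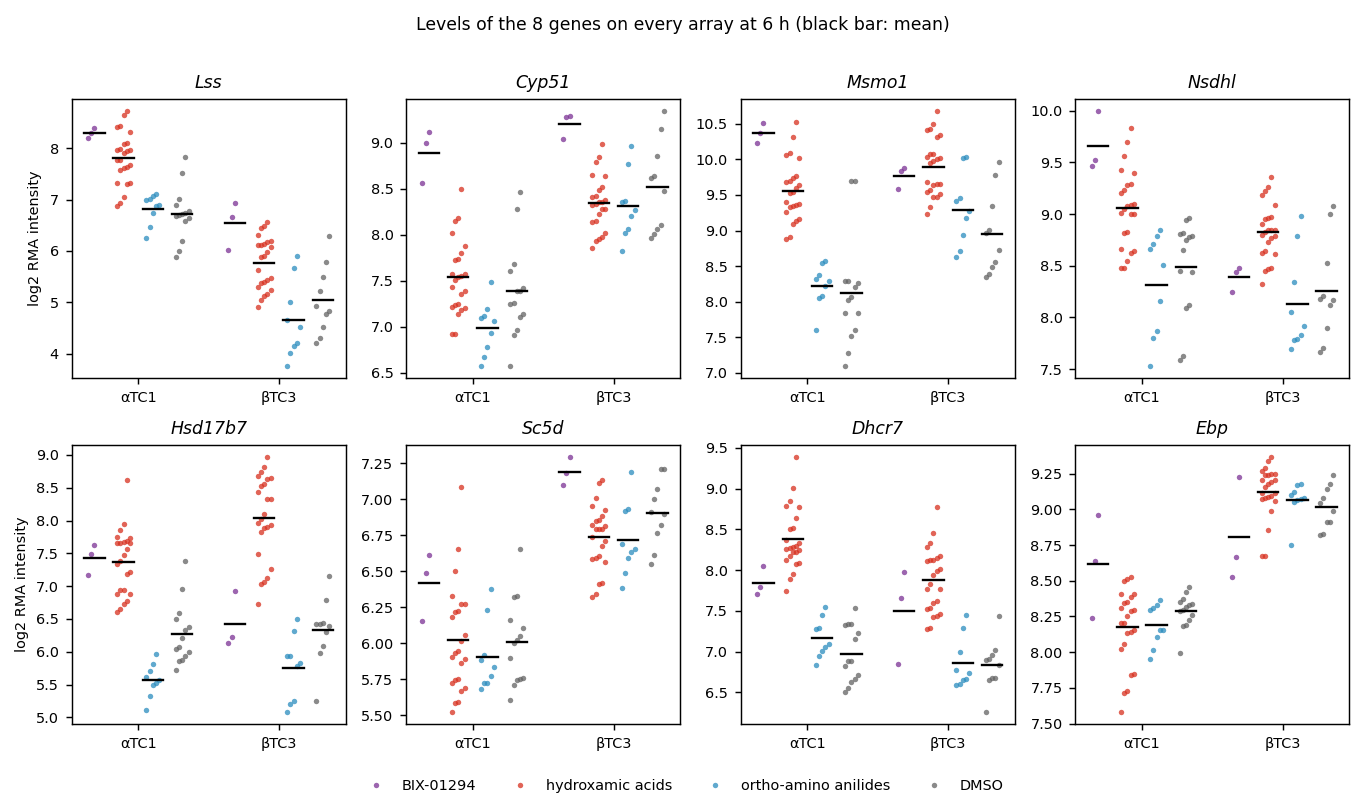
Log2 RMA intensity of the 8 genes on every array at 6 h, by line, for BIX-01294 (3 arrays per line), 8 hydroxamic acids (24 arrays), 3 ortho-amino anilides (9 arrays) and DMSO (14 arrays in αTC1, 10 in βTC3); black bars are means. Hydroxamic acid arrays lie above DMSO for Dhcr7, with no overlap in αTC1, and Cyp51 lies above DMSO with BIX-01294 in αTC1, where the hydroxamic acids overlap DMSO.

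The 5 genes moved the same way with nearly every hydroxamic acid. In αTC1 at 6 h Dhcr7, Hsd17b7, Lss and Msmo1 were higher with all 8 compounds and Nsdhl with 7. Dhcr7 ran from 1.03 with LBH-589 to 1.84 with pyroxamide, Hsd17b7 from 0.74 with scriptaid to 1.58 with ITF-2357, and Lss from 0.63 with SAHA to 1.64 with ITF-2357. In βTC3 Dhcr7, Hsd17b7 and Msmo1 were higher with all 8, Nsdhl with 7 and Lss with 6. There Hsd17b7 ran from 1.02 with LBH-589 to 2.38 with ITF-2357, and Cyp51 was lower with 3 of the 8. Within each of the 6 batches that held both groups, the change of Lss, Msmo1, Nsdhl, Hsd17b7 and Dhcr7 was above 0 in both lines, Hsd17b7 in βTC3 between 1.04 and 2.35. Cell identity genes moved in the same comparison: 3 of 4 alpha cell markers and 3 of 6 beta cell markers were lower in αTC1 and 4 of 6 beta cell markers were lower in βTC3, where 24.3% of all genes were lower in αTC1 and 24% in βTC3. Summed beta cell markers in βTC3 lay between 9849 and 12875 with hydroxamic acids and between 13314 and 15237 with DMSO. Their part in the result was not tested.

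Ortho-amino anilides, inhibitors of the same enzyme family, gave no call of a higher level for any of the 8 genes at 6 h, and lowered several. In αTC1 3 genes fell (13.9% of all genes were lower and 12.7% higher): Hsd17b7 (-0.46 ± 0.11), Cyp51 (-0.35 ± 0.07) and Nsdhl (-0.27 ± 0.08). Hsd17b7 lay between 5.11 and 5.97 (median 5.57) on the 9 anilide arrays, against 5.73 to 7.39 (median 6.14) with DMSO, with little overlap. In βTC3 4 genes fell (16.5% of all genes were lower and 12.9% higher): Lss (-0.58 ± 0.15), Hsd17b7 (-0.48 ± 0.12), Cyp51 (-0.44 ± 0.07) and Nsdhl (-0.31 ± 0.09). Lss ran from 3.76 to 5.91 (median 4.51) with anilides, against 4.22 to 6.29 (median 4.89) with DMSO, and overlapped broadly. Msmo1 (0.19 in αTC1 and 0.11 in βTC3) and Dhcr7 (0.15 and 0.06), 2 of the genes that hydroxamic acids raised most, were not called. Without a batch term 1 gene was called lower in each line.

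The difference between these classes was itself tested, as hydroxamic acids minus anilides at 6 h, over compounds whose doses differ. In αTC1 6 of the 8 genes were higher with hydroxamic acids (23.8% of all genes), led by Hsd17b7 at 1.54 ± 0.10 (limma adjusted p = 5.11e-22). Dhcr7 differed by 1.21 ± 0.13, Msmo1 by 1.13 ± 0.11, Lss by 0.86 ± 0.10, Nsdhl by 0.73 ± 0.07 and Cyp51 by 0.40 ± 0.07. In βTC3 7 of 8 were higher (25.5% of all genes), with Hsd17b7 at 2.26 ± 0.11 (4.78-fold, limma adjusted p = 2.12e-29), Lss at 1.33 ± 0.13 and Dhcr7 at 0.98 ± 0.12. Nsdhl (0.93 ± 0.08), Msmo1 (0.86 ± 0.10), Cyp51 (0.27 ± 0.06) and Ebp (0.21 ± 0.08) followed. Ebp came to 0.10 without replicate 2 and Cyp51 to 0.03 without a batch term, and neither was then called. Only Sc5d, the desaturase, was called in neither line (-0.09 in αTC1 and 0.04 in βTC3).

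Of the compounds given at 10 µM, 4 pairs were chosen and compared in both lines at all 3 times. The hydroxamic acid ITF-2357 exceeded the anilide CI-994 at 6 h for 6 genes in αTC1 (16% of all genes higher) and 6 in βTC3 (19.2%). Hsd17b7 differed most, by 2.07 (95% interval 1.64 to 2.49) in αTC1 and 2.74 (2.30 to 3.18) in βTC3. The hydroxamic acid pyroxamide exceeded CI-994 at 6 h for 6 genes in αTC1 (16.3% of all genes) and 4 in βTC3 (16.1%), again led by Hsd17b7 at 1.59 and 2.12. Between the 2 hydroxamic acids, as ITF-2357 minus pyroxamide, 2 genes were called in each line at 6 h. In αTC1 at 6 h Nsdhl (0.94, interval 0.67 to 1.20) and Msmo1 (0.91, 0.50 to 1.33) were higher with ITF-2357, where 0.415% of all genes were. Dhcr7 there differed by -0.01, with an interval from -0.51 to 0.49 that leaves room for a difference either way. In βTC3 at 6 h Dhcr7 (0.83, 0.40 to 1.26) and Hsd17b7 (0.62, 0.23 to 1.01) were higher with ITF-2357 (2.85% of all genes). The DNA methylation inhibitors zebuarine and 5-azadeoxycytidine had no difference called among the 8 genes at 6 h, where at most 0.0762% of all genes were called, and no pair had one called at 1 h.

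At 24 h the pairs of histone deacetylase inhibitors had calls in both directions. ITF-2357 minus CI-994 was above 0 in αTC1 for Nsdhl (0.89) and Lss (0.84), where 12% of all genes were higher, and below 0 for Ebp (-0.70), where 9.35% were lower. In βTC3 it was above 0 for Hsd17b7 (0.99; 10.2% of all genes) and below 0 for Cyp51 (-0.67), Msmo1 (-0.67) and Sc5d (-0.51; 10.6%). Pyroxamide minus CI-994 was called for Nsdhl in αTC1 (0.90, interval 0.50 to 1.30; 7.7% of all genes higher) and for none of the 8 in βTC3, where 12.8% of all genes were called. ITF-2357 minus pyroxamide was called for none in αTC1 (2.34% of all genes called) and for Ebp in βTC3 (-0.52, -0.83 to -0.20; 8.38% lower). The count for that pair depends on the adjustment: over the 192 pair tests of these 8 genes alone, which were chosen with results known, it was 5 in αTC1 and 4 in βTC3 at 6 h and 1 and 5 at 24 h.

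With the replicate number as a block, 4 calls of these pairs were lost: Cyp51 (0.32) for ITF-2357 minus CI-994 and Msmo1 (0.54) for pyroxamide minus CI-994 in βTC3 at 6 h, and Lss (0.77) for ITF-2357 minus CI-994 and Ebp (-0.61) for zebuarine minus 5-azadeoxycytidine in αTC1 at 24 h.

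At 24 h with hydroxamic acids the counts of the 8 genes were near the shares of all genes. In αTC1 2 genes were higher (26.1% of all genes) and 3 lower (24.3%). Hsd17b7 lay between 6.02 and 8.26 (median 7.56) on 22 arrays, against 5.45 to 7.13 (median 6.25) with DMSO, a change of 1.05 ± 0.11. Dhcr7 ran from 6.59 to 8.98 (median 7.77), against 6.80 to 8.0 (median 7.14) with DMSO, and was up by 0.54 ± 0.11. Cyp51 fell by 0.59 ± 0.08 (6.77 to 7.67, against 7.29 to 8.60 with DMSO), Lss fell by 0.37 ± 0.10 and Nsdhl fell by 0.18 ± 0.07. Msmo1, the second most raised gene at 6 h, stood at -0.03. Without a batch term 3 of the 8 were called.

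In βTC3 at 24 h the hydroxamic acids left 3 genes higher (22.5% of all genes) and 2 lower (20.7%). Hsd17b7 changed by 0.59 ± 0.09, Dhcr7 by 0.54 ± 0.11 and Ebp by 0.19 ± 0.07. Cyp51 fell by 0.61 ± 0.06 (limma adjusted p = 1.32e-14), lying between 7.57 and 8.99 (median 8.40) on 24 arrays, against 8.31 to 9.44 (median 8.96) with DMSO. Sc5d fell by 0.49 ± 0.07 (6.26 to 7.43, against 6.76 to 7.74 with DMSO). By compound, Cyp51 was lower with 7 of the 8 hydroxamic acids in αTC1 and with 5 of 8 in βTC3, and Hsd17b7 higher with 7 of 8 in αTC1 and 4 of 8 in βTC3.

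The loss between 6 h and 24 h was called when the 2 responses were compared directly (24 h minus 6 h). In αTC1 Msmo1 differed by -1.35, Lss by -1.33, Dhcr7 by -0.81 and Cyp51 and Nsdhl by -0.64 each (16.8% of all genes were lower in this sense). In βTC3 7 genes were lower (17.7% of all genes), Hsd17b7 at -1.19 and Msmo1 at -1.06. Hsd17b7 in αTC1 was not among them, at 1.05 at 24 h and 1.08 at 6 h. The difference between the lines in the Hsd17b7 response (αTC1 minus βTC3) was -0.70 at 6 h and 0.47 at 24 h, both called, where 14.4% of all genes were lower at 6 h and 17.6% higher at 24 h.

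Anilides, which had raised none of the 8 genes at 6 h, had several genes called at 24 h that were also called with the hydroxamic acids. In αTC1 the counts, 2 higher and 3 lower, were near the shares of all genes, as with the hydroxamic acids. In αTC1 Hsd17b7 (0.77 ± 0.16) and Dhcr7 (0.67 ± 0.16) were higher (21.2% of all genes), and Cyp51 (-0.80 ± 0.11), Nsdhl (-0.73 ± 0.10) and Lss (-0.67 ± 0.14) were lower (22.5%). All 8 anilide arrays were below all 14 DMSO arrays for Cyp51 (6.41 to 7.22, against 7.29 to 8.60), for Lss (5.55 to 6.59, against 6.60 to 8.03) and for Nsdhl (7.40 to 7.88, against 8.10 to 9.39), as were 7.64% of all genes. In βTC3 4 genes were higher (22% of all genes): Dhcr7 (0.71 ± 0.14), Msmo1 (0.44 ± 0.11), Hsd17b7 (0.42 ± 0.12) and Ebp (0.36 ± 0.08). Ebp had 9 anilide arrays at 9.33 to 9.57, all above the 12 DMSO arrays at 8.65 to 9.28, as were 5.12% of all genes. Sc5d (-0.34 ± 0.09), Cyp51 (-0.32 ± 0.08) and Nsdhl (-0.21 ± 0.08) were lower (21.7%). Of these 7 genes 3 were called without a batch term, and with the mean of its probe sets Cyp51 came to -0.17 and was not called.

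At 24 h the classes were compared in the same way. In αTC1 Nsdhl was higher with hydroxamic acids than with anilides (0.56 ± 0.09; 14.2% of all genes), and Sc5d (-0.34 ± 0.11) and Ebp (-0.30 ± 0.11) were lower (13.4%). This count of 3 was 1 when replicate 2 was left out. With no batch term 5 genes were higher and 0 lower, with Sc5d at 0.0071. In βTC3 Msmo1 (-0.52 ± 0.10) and Cyp51 (-0.29 ± 0.07) were lower with hydroxamic acids (16.3% of all genes) and none was higher (16.2%). This count of 2 was 1 without a batch term and 4 without batch 7.

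The 2 cyclic tetrapeptides, deacetylase inhibitors of yet another structure, raised at 6 h in αTC1 the same 5 genes as the hydroxamic acids (21% of all genes higher): Msmo1 by 1.21 ± 0.13, Dhcr7 by 0.98 ± 0.16, Lss by 0.83 ± 0.12, Hsd17b7 by 0.80 ± 0.12 and Nsdhl by 0.36 ± 0.08. In βTC3 4 genes were higher (20.6%), Hsd17b7 most at 1.23 ± 0.13, and Cyp51 was lower at -0.27 ± 0.08 (18.4%). At 24 h Hsd17b7 was higher in αTC1 (0.44 ± 0.16; 17.8% of all genes) and Cyp51, Lss, Msmo1 and Nsdhl were lower, Cyp51 most at -0.73 ± 0.12 (18.2%). In βTC3 at 24 h Hsd17b7 (0.68 ± 0.14) and Dhcr7 (0.41 ± 0.16) were higher (13.1%) and Sc5d and Cyp51 lower (12.4%).

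BIX-01294, known as an inhibitor of the histone H3 lysine methyltransferases G9a and GLP, raised most of these genes at 6 h in αTC1 and at 24 h in both lines. In αTC1 at 6 h Msmo1 read 10.37, 10.22 and 10.52 with BIX-01294, against 7.10 to 9.70 (median 8.04) with DMSO. Cyp51 read 9.12, 8.57 and 9.0, against 6.58 to 8.46 (median 7.32). Lss read 8.39, 8.20 and 8.30, against 5.88 to 7.84 (median 6.71). These 3 genes, with Dhcr7 and Nsdhl, were above every DMSO array, as were 0.966% of all genes. The changes were 2.26 ± 0.17 for Msmo1 (limma adjusted p = 8.32e-18), 1.50 ± 0.10 for Cyp51 (7.83e-20) and 1.49 ± 0.15 for Lss (2.36e-12). Hsd17b7 (1.23 ± 0.15), Nsdhl (1.00 ± 0.11) and Dhcr7 (0.82 ± 0.20) were higher too, making 6 of 8 where 2% of all genes (236) were higher and 2.38% (281) lower. Sc5d (0.40) and Ebp (0.33) were not called.

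At 24 h 7 of the 8 genes were higher with BIX-01294 in each line, where 0.72% of all genes (85) were higher in αTC1 and 0.864% (102) in βTC3. In αTC1 the changes ran from 0.89 ± 0.15 for Sc5d to 1.54 ± 0.18 for Msmo1. In βTC3 they ran from 0.89 ± 0.11 for Cyp51 to 1.76 ± 0.24 for Lss. Cyp51 in βTC3 read 9.87, 9.87 and 10.22 with BIX-01294, against 8.31 to 9.44 with DMSO. In each line 5 of the genes lay above every DMSO array, as did 0.551% of all genes in αTC1 and 0.644% in βTC3. Lss in βTC3, at 6.87, 7.66 and 8.34 with BIX-01294 and 4.19 to 6.96 with DMSO, overlapped in spite of the largest mean change. Ebp was called at no time in either line (0.27 in αTC1 and 0.17 in βTC3 at 24 h).

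At 6 h in βTC3 the count with BIX-01294 was 4 (5.3% of all genes higher and 5.73% lower): Lss at 1.50 ± 0.20, Msmo1 at 0.81 ± 0.15, Dhcr7 at 0.72 ± 0.18 and Cyp51 at 0.57 ± 0.10. None of the 8 genes lay wholly above DMSO there, against 2.93% of all genes, and without the batch term 1 gene was called. The response was larger in αTC1 at 6 h for Msmo1 (1.45), Cyp51 (0.93), Hsd17b7 (0.91) and Nsdhl (0.85), as αTC1 minus βTC3 on the log2 scale, where 2.18% of all genes were (no gene was called in this difference without the batch term). Within each of the 3 batches that held BIX-01294 and DMSO, all 8 changes at 24 h were above 0 in both lines.

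BRD-K62233722, known only by its code, changed few genes in αTC1. At 6 h there 12 genes were called in all, 11 of them higher (0.0932% of all genes), and 5 of the 11 were among the 8: Msmo1 (1.66 ± 0.17), Cyp51 (1.17 ± 0.10), Lss (1.12 ± 0.15), Nsdhl (0.88 ± 0.11) and Hsd17b7 (0.80 ± 0.16). Of the other 6, Idi1, Mvd, Fdft1 and Sqle belong to the mevalonate-to-squalene stretch and Scd1 and Fads2 desaturate fatty acids. Msmo1 read 9.79, 9.58 and 9.74 with BRD-K62233722, against 7.10 to 9.70 with DMSO. Cyp51 read 8.75, 8.23 and 8.55, against 6.58 to 8.46, so both overlapped with the top of the DMSO arrays. Ebp, at 8.58, 8.80 and 8.58 with the compound and 8.0 to 8.46 with DMSO, lay above every DMSO array but was not called (0.33). It was 1 of 2 of the 8 genes that lay wholly above DMSO there, and the share of all genes was not counted. Without a batch term 3 of the 5 genes were called.

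In βTC3 at 6 h BRD-K62233722 raised 2 genes (1.58% of all genes), Msmo1 by 0.62 ± 0.15 and Cyp51 by 0.42 ± 0.10, and this count was 1 without replicate 2 and 0 without replicate 3. At 24 h none of the 8 was called in either line, with 2 arrays in αTC1, where 0.00847% of all genes were called, and 3 in βTC3, where 0.0932% were. In αTC1 the responses at 24 h minus 6 h differed by -1.57 for Msmo1 and -0.96 for Cyp51 (0.0254% of all genes), and neither was called without a batch term.

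Chaetocin, a fungal compound known as an inhibitor of histone H3 lysine methyltransferases, went opposite ways at the 2 later times. At 6 h 5 genes were higher in αTC1 (15.8% of all genes), Msmo1 most at 1.13 ± 0.17, and 6 in βTC3 (11.7%), Dhcr7 most at 1.12 ± 0.18. At 24 h 3 genes were lower in αTC1 (24.5%) and 4 in βTC3 (15.5%), none higher. Lss fell most, by 1.55 ± 0.18 in αTC1 (limma adjusted p = 1.31e-11) and it fell by 1.63 ± 0.24 in βTC3 (6.59e-08). It read 5.21, 4.57, 5.67 and 5.81 with chaetocin in αTC1, against 6.60 to 8.03 with DMSO, and 3.77, 4.17 and 4.18 in βTC3, against 4.19 to 6.96. All chaetocin arrays were below all DMSO arrays for Lss, though narrowly in βTC3. Of the 8 genes 1 lay wholly below DMSO in αTC1 and 2 did in βTC3 at 24 h, and the share of all genes was not counted. Nsdhl in βTC3 fell by 0.77 ± 0.12. The counts leaned on single arrays: in αTC1 3 became 1 without replicate 1 and 5 without replicate 4 at 24 h, 5 became 3 without replicate 3 at 6 h, and in βTC3 4 became 2 without replicate 1 at 24 h and 6 became 4 without any 1 of the 3 replicates at 6 h. Without a batch term the βTC3 counts were 3 at 6 h and 2 at 24 h. Non-endocrine markers summed to 73.3 to 117 with chaetocin in αTC1 at 24 h and to 63.7 to 70.9 with DMSO, with 3 of those 8 markers higher, and their part in the result was not tested.

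Compared directly, the responses at 24 h minus 6 h were lower with chaetocin for 5 genes in αTC1 (15.5% of all genes) and 5 in βTC3 (8.77%), Lss most at -2.09 and -2.23. With anilides they were higher for 1 gene and lower for 3 in αTC1 (16.7% and 16.2%) and higher for 4 in βTC3 (16.2%), Hsd17b7 most at 1.23 and 0.90. With BIX-01294 the later response was larger for 1 gene in βTC3, Nsdhl (0.89; 0.44%). Between the lines, as αTC1 minus βTC3, the 6 h response was higher for 3 genes with BRD-K62233722 (0.102%; 0 genes without a batch term) and for 1 with anilides (5.85%), and for hydroxamic acids higher for 2 and lower for 1 (17.7% and 14.4%). At 24 h it was higher for 2 and lower for 1 with hydroxamic acids (17.6% and 18.2%), higher for 1 and lower for 4 with anilides (13.3% and 14.5%), and higher for 1 with chaetocin (12.7%).

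**Figure D3:**
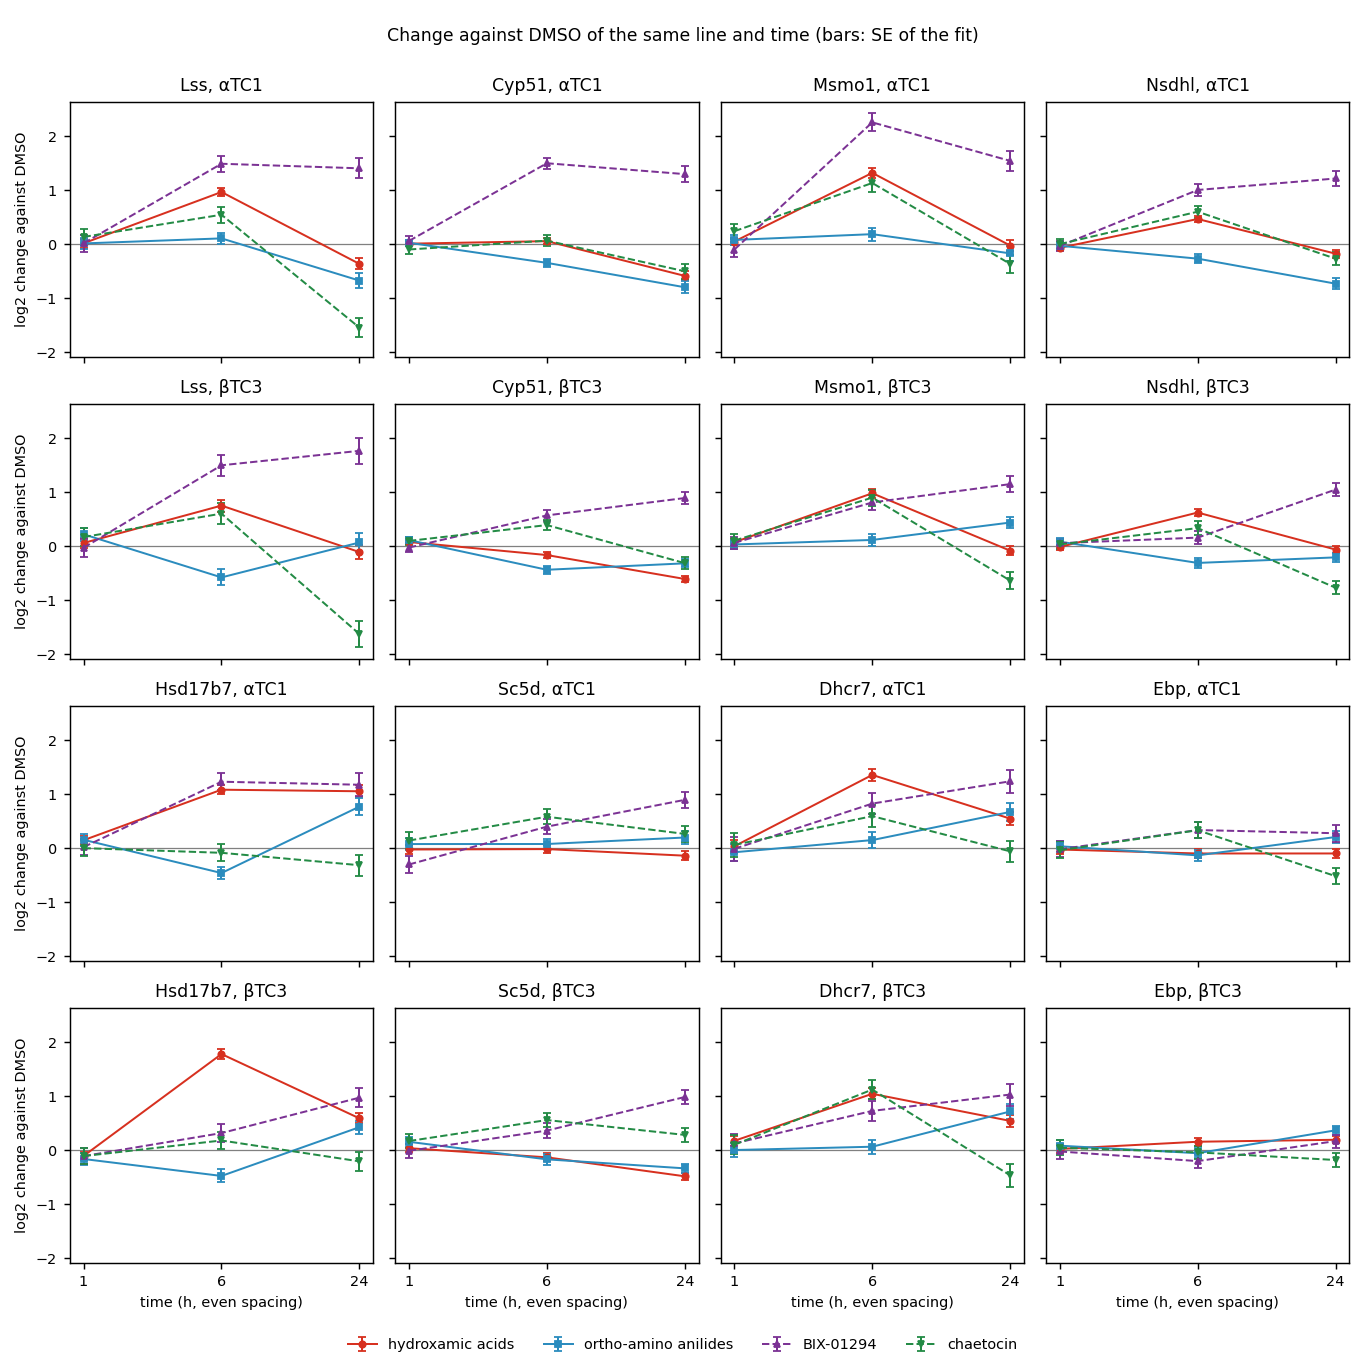
Log2 change against DMSO of the same line and time for each gene (1 panel per gene and line) at 1, 6 and 24 h (even spacing), for hydroxamic acids, ortho-amino anilides, BIX-01294 and chaetocin; bars are the SE of the fit. Changes are near 0 at 1 h, hydroxamic acids peak at 6 h for Msmo1 (1.32 in αTC1), BIX-01294 stays up at 24 h (1.54 for Msmo1 in αTC1), and chaetocin turns down for Lss (-1.55 in αTC1).

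Among the DNA methylation inhibitors, effects on these genes were few and late. Zebuarine in βTC3 at 24 h lowered 3 genes (1.82% of all genes): Lss (-0.94 ± 0.25), Msmo1 (-0.68 ± 0.16) and Nsdhl (-0.53 ± 0.12). Lss averaged 4.34 ± 0.95 with zebuarine (SD, n = 3) and 5.61 ± 0.80 with DMSO (n = 12), and the groups overlapped. 5-Azadeoxycytidine in βTC3 at 24 h lowered Hsd17b7 (-0.54 ± 0.18) and Nsdhl (-0.39 ± 0.12), where 5.05% of all genes were lower. Neither compound changed any of the 8 at 6 h or in αTC1. In αTC1 at 24 h zebuarine minus 5-azadeoxycytidine was -0.64 for Sc5d (interval -1.03 to -0.26) and -0.61 for Ebp (-1.01 to -0.21), where 2.34% of all genes were lower. In βTC3 no difference of that pair was called among the 8 (0.229% of all genes called). RG-0108 and AMI-1 changed none of the 8 at any time in either line.

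Over all 29 compounds, the share of the panel that reached these enzymes at 6 h was large. At least 4 of the 8 genes were higher with 18 compounds in αTC1 and 16 in βTC3 at 6 h, but with 1 in αTC1 and 4 in βTC3 at 24 h. With the compounds so counted at 6 h, the share of all genes called higher lay between 0.0932% and 21.4% for αTC1 and between 5.3% and 22.4% for βTC3. At 24 h it was 0.72% for αTC1 and lay between 0.864% and 18.7% for βTC3. At 6 h Lss and Msmo1 were higher with 18 compounds in αTC1, and Dhcr7, Hsd17b7 and Nsdhl with 17 each, while Cyp51 was higher with 3 and lower with 2. In βTC3 Msmo1 was higher with 18, Dhcr7 with 17, Hsd17b7 with 15, Nsdhl with 14 and Lss with 13, while Cyp51 was higher with 3 and lower with 6. At 24 h Cyp51 was lower with 14 compounds in αTC1 and 13 in βTC3, Lss was lower with 9 in αTC1, Sc5d was lower with 10 in βTC3, and Hsd17b7 was higher with 16 in αTC1 and 9 in βTC3. All compounds of a line and time share their DMSO arrays, so these counts are not independent of each other. The share of all genes called in either direction ran from 0% to 39.9% over the compounds in αTC1 and from 0% to 41.7% in βTC3 at 6 h. At 24 h it ran from 0% to 47.9% in αTC1 and from 0% to 42.4% in βTC3. With how many compounds other genes were called higher or lower was not counted.

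ITF-2357 had the most genes called at 6 h in αTC1, 7 higher of 8 (20.3% of all genes), from 0.39 ± 0.14 for Sc5d to 1.84 ± 0.17 for Msmo1, followed by BIX-01294 with 6 higher and PXD101 with 5 higher and 1 lower (19.1% and 17.1% of all genes). BRD-K62233722 and BRD-K92415738 (18.6%) came next with 5 higher each. In βTC3 PXD101 (20.5%) and chaetocin had 6 higher each. CRA-024781 (20.5% of all genes higher, 17.9% lower) and trichostatin A (22.4% and 19.4%) had 5 higher and 1 lower each. In βTC3 ITF-2357 had 5 higher (21.6% of all genes), Hsd17b7 most at 2.38 ± 0.17. None of the 8 was called at 6 h in either line for 5-azadeoxycytidine, AMI-1, BRD5298, BRD6929, BRD8451, MS-275, RG-0108 and zebuarine, nor in βTC3 for BRD9773, compounds with which 0% to 14.3% of all genes were called in αTC1 and 0% to 17.8% in βTC3. MS-275 is the anilide among them, and at 24 h it had 2 genes higher and 3 lower in αTC1 (18.2% and 19.5% of all genes) and 4 higher and 1 lower in βTC3 (17.2% and 15.7%). In αTC1 at 24 h trichostatin A (22.5% of all genes higher, 20.3% lower) and PXD101 (21.4% and 19.7%) had 2 higher and 3 lower each, Hsd17b7 most at 1.18 ± 0.21 and 1.35 ± 0.21. In βTC3 at 24 h apicidin (18.7% and 17.4%) and MGCD-0103 (16% and 15.6%) had 4 higher and 2 lower each, with Hsd17b7 at 1.31 ± 0.18 and 0.56 ± 0.18. Trichostatin A there had Ebp higher (0.36 ± 0.12; 15%) and 4 lower (15.4%), Lss most at -0.85 ± 0.24. At 24 h LBH-589, scriptaid and HC-toxin changed none of the 8 in βTC3 (6.31%, 0.0508% and 2.2% of all genes called), though HC-toxin had 4 lower in αTC1 (11.3%). AMI-1, RG-0108, BRD-K62233722, BRD-K92415738 and BRD9773 had none of the 8 called at 24 h in either line, nor had 5-azadeoxycytidine, zebuarine, BRD-A94377914 and BRD8451 in αTC1 and BRD-K90919562 in βTC3. The compounds with none called at 24 h, 9 in each line, had 0% to 19.5% of all genes called in αTC1 and 0% to 18.2% in βTC3.

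**Figure D4:**
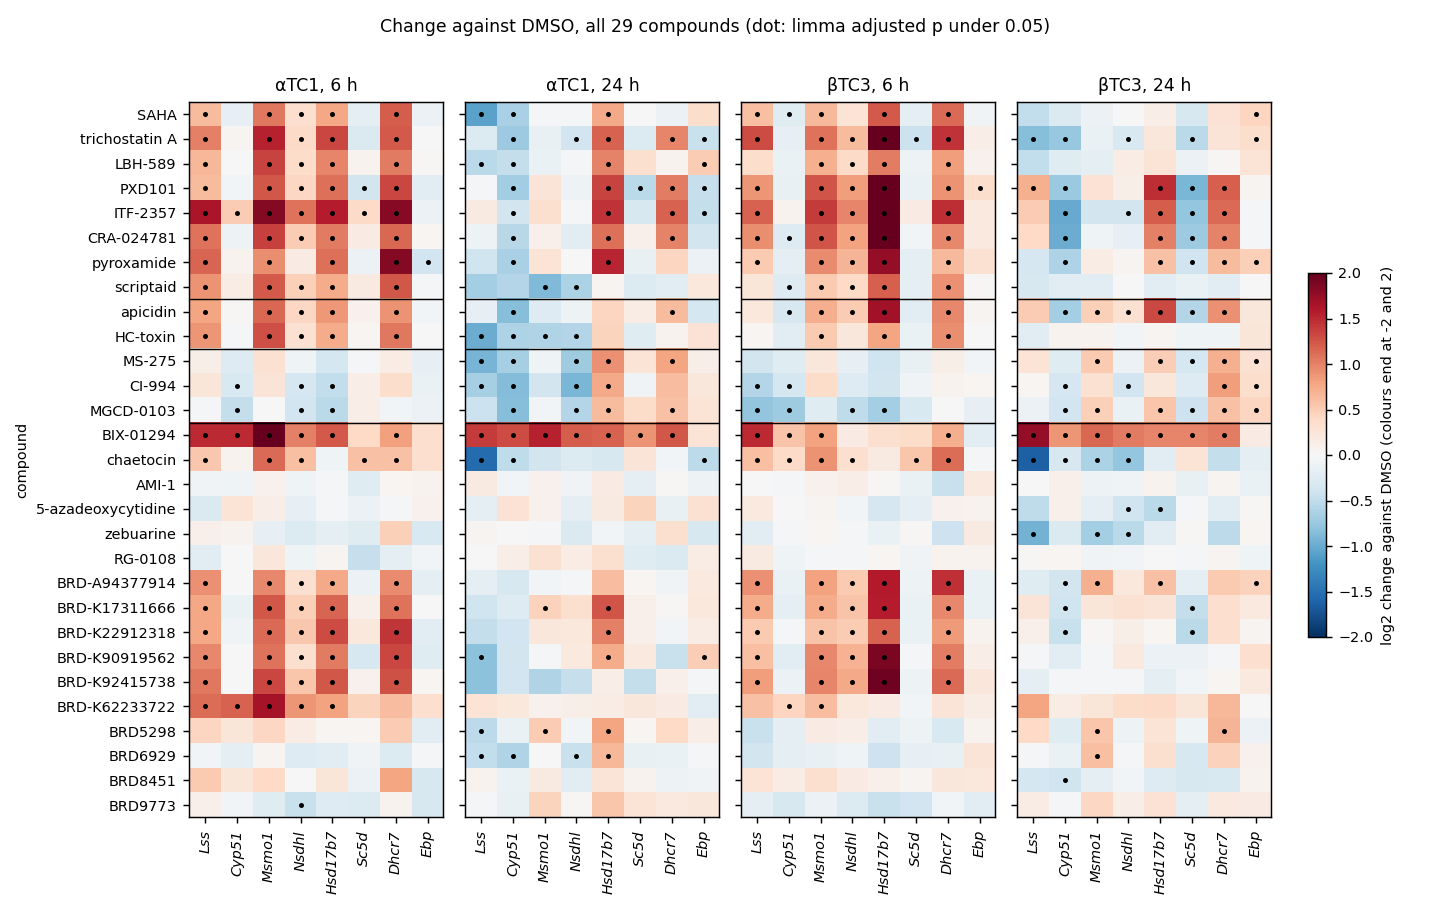
Log2 change against DMSO (colour, red higher, ending at -2 and 2) of the 8 genes for all 29 compounds in each line at 6 and 24 h; dots mark calls and black lines part hydroxamic acids, cyclic tetrapeptides, ortho-amino anilides and the rest. Lss and Msmo1 are higher with 18 compounds each in αTC1 at 6 h, and Cyp51 is lower with 14 there at 24 h.

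Earlier steps of the route moved with these enzymes. Of the mevalonate-to-squalene genes 7 were measured, and all 7 were higher with hydroxamic acids at 6 h in both lines (26.6% of all genes in αTC1 and 26.2% in βTC3), with a median change of 0.72 in αTC1 and 0.66 in βTC3 against -0.01 over all genes in each. In αTC1 Idi1, the isomerase of the isoprene units, changed by 1.14 ± 0.06, and the kinase Mvk and the squalene synthase Fdft1 by 0.97 each. In βTC3 Mvk changed by 1.17 ± 0.08 and Sqle, which makes the oxidosqualene that Lss uses, by 0.82. With anilides at 6 h none of the 7 was higher and 2 were lower in αTC1 (12.7% and 13.9% of all genes), and 1 was higher and 3 were lower in βTC3 (12.9% and 16.5%). With BIX-01294 5 of the 7 were higher in αTC1 at 6 h and at 24 h, and 3 at 6 h and 6 at 24 h in βTC3, Mvd most in each (1.45, 1.37, 1.02 and 1.12). The shares of all genes higher were 2% and 0.72% in αTC1 and 5.3% and 0.864% in βTC3. With chaetocin at 24 h 5 of 7 were lower in αTC1 (24.5% of all genes) and 2 in βTC3 (15.5%).

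Of the other late enzymes, Tm7sf2, a sterol reductase that acts after Cyp51, was higher with hydroxamic acids at 6 h (0.70 in αTC1 and 0.75 in βTC3) and more so at 24 h (1.56 and 1.49). Lbr, which can do the same reduction in the nuclear envelope, was lower in βTC3 at 6 h (-0.73). The counts that follow are for hydroxamic acids at 6 h, where 26.6% of all genes were higher and 24.3% lower in αTC1, and 26.2% and 24% in βTC3. Of 4 measured sterol-sensing genes 3 were higher in αTC1 at 6 h, among them Scap, the SREBP escort (0.48), and Insig2, which holds it back (0.41). In βTC3 2 were higher and 2 lower, Srebf2, the gene of the cholesterol-directed SREBP, at -0.23. Of the 3 measured uptake and transport genes, Npc1 and Npc2 were higher in αTC1 (0.84 and 0.53) with Stard4 lower (-0.31), and all 3 were higher in βTC3. Of 7 fatty acid genes 2 were higher and 4 lower in αTC1, and 2 higher and 3 lower in βTC3, with Fads2 at -0.67 in αTC1 and -0.93 in βTC3.

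The genes most like the mean of the 8 over all compound arrays, by the smaller of 2 Pearson correlations (257 αTC1 and 261 βTC3 arrays, each as level minus the DMSO mean of its line and time), were Sqle (0.86 in αTC1 and 0.92 in βTC3), Idi1 (0.89 and 0.83), Fdft1 (0.76 and 0.82), Aacs (0.76 and 0.75), Mvd (0.74 and 0.76), Scd1 (0.64 and 0.75), Mvk (0.62 and 0.74) and Lpin1 (0.61 and 0.66). Among the 8 themselves, Msmo1 (0.91 and 0.89), Nsdhl (0.82 and 0.90) and Lss (0.81 and 0.83) followed their common mean most closely, a mean that each of them enters. Dhcr7 (0.49 and 0.67), Cyp51 (0.62 and 0.48) and Hsd17b7 (0.48 and 0.56) followed it less, Sc5d less again (0.40 and 0.29), and Ebp hardly (-0.03 and 0.11). These arrays share batches and DMSO means, so the values describe likeness and are not tests. Over pairs of the 8 at 6 h, the median correlation was 0.49 in αTC1 and 0.47 in βTC3 (28 pairs, 87 arrays).

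Where a gene had more probe sets, they did not always give the same size. Both sets of Hsd17b7 agreed in sign in every comparison described, for example 1.08 and 0.83 with hydroxamic acids at 6 h in αTC1. The 3 sets of Cyp51 gave 1.50, 1.58 and 0.87 with BIX-01294 at 6 h in αTC1, but -0.17, 0.00 and 0.10 with hydroxamic acids at 6 h in βTC3, so the small fall there holds for 1 set. The fall of Cyp51 with cyclic tetrapeptides at 24 h in βTC3 was -0.31 in the set used and -0.07 and -0.04 in the other sets. The second set of Sc5d, near the bottom of the scale at a mean of 3.56, gave -0.01 with hydroxamic acids at 24 h in βTC3 where the set used gave -0.49, and 0.14 with BIX-01294 at 24 h in βTC3 where the set used gave 0.98.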

How the data were processed

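RNA of mouse αTC1 and βTC3 cells was hybridised to Affymetrix arrays. For every array the authors deposited probe set intensities from RMA, a step named in the submitters' processing notes. Its version, and whether the values were scaled or adjusted for batch afterwards, are not given in the sources used here. Deposited values ran from 3.96 to 13635 and were linear, where the plan had assumed log2 values, so their log2 was taken. Of 22716 probe sets 18003 had 1 gene symbol in the annotation, 287 had several and 4426 had none here. The 11807 genes were each read through the probe set with the highest mean (4150 had more than 1).

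Line, compound, dose, time, batch (7) and plate (9) came from the titles. For each line and time limma 3.58.1 in R 4.3.3 was fitted to all arrays with batch as a fixed term, and p-values were adjusted over all genes (Benjamini-Hochberg, 0.05). Classes weighted compounds equally. Differences between lines, or between 24 h and 6 h, came from joint fits. On simulated data with 11807 genes, the hydroxamic acid fit at 6 h recovered 98% of genes changed by 0.5 on the log2 scale in each line and BIX-01294 72% in αTC1 and 76% in βTC3, with 3.85% to 6.56% false calls. Only 100 genes were changed at each size and the noise was drawn from the fit itself. These rates therefore hold for that setting, where far fewer genes changed than with hydroxamic acids in the data. The number of arrays limits the precision.

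The genes, gene lists and tests were chosen with earlier results of these data known. The named genes are the 8 members, up to 4 called genes per list by size, and the 8 genes most like the members. Named compounds are the 5 with most calls per line and time, those with none, and those that do not target deacetylases. Promoter sequences are RefSeq's (GRCm38.p6). Replicate numbers of compound arrays were checked for pairing: deviations of arrays with the same number correlated at 0.009 to 0.023 on average and of other arrays at -0.011 to -0.004, so they were not treated as pairs. Alternatives tried were no batch term, plate as a random block, centring, quantile normalization, the mean of probe sets, a filter on low genes, only the groups compared, a replicate block, and leaving out replicates, compounds, batches or arrays with Ins2. The last 2 were chosen after seeing the data.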

Additional observations from a re-analysis of the deposited data

Results flagged for a closer look

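Several responses of these genes differed between 24 h and 6 h, or between the lines, by a test of the difference itself (limma, adjusted over all genes). Values are log2, as 24 h minus 6 h or αTC1 minus βTC3, and the responses compared share no arrays.

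With hydroxamic acids, the 24 h minus 6 h difference in αTC1 was -0.64 for Cyp51, -0.81 for Dhcr7, -1.33 for Lss, -1.35 for Msmo1 and -0.64 for Nsdhl (16.8% of all genes were lower). In βTC3 it was -0.44 for Cyp51, -0.50 for Dhcr7, -1.19 for Hsd17b7, -0.86 for Lss, -1.06 for Msmo1, -0.69 for Nsdhl and -0.35 for Sc5d (17.7%). The anilides went the other way for Hsd17b7, the ketone reductase, at 1.23 in αTC1 (16.7% of all genes were higher) and 0.90 in βTC3 (16.2%). In αTC1 the anilides gave -0.45 for Cyp51, -0.78 for Lss and -0.46 for Nsdhl (16.2% lower). In βTC3 they gave 0.65 for Dhcr7, 0.42 for Ebp and 0.65 for Lss.

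With chaetocin, the 24 h minus 6 h difference in αTC1 was -0.57 for Cyp51, -0.85 for Ebp, -2.09 for Lss, -1.50 for Msmo1 and -0.87 for Nsdhl (15.5% of all genes were lower). In βTC3 it was -0.71 for Cyp51, -1.59 for Dhcr7, -2.23 for Lss, -1.54 for Msmo1 and -1.10 for Nsdhl (8.77%). With BRD-K62233722 in αTC1 it was -0.96 for Cyp51 and -1.57 for Msmo1 (0.0254%), and neither was called without a batch term. With BIX-01294 in βTC3 Nsdhl differed by 0.89, from a response of 1.05 at 24 h and 0.16 at 6 h (0.44% of all genes were higher).

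Between the lines at 6 h, the response to BIX-01294 was larger in αTC1 for Cyp51 by 0.93, Hsd17b7 by 0.91, Msmo1 by 1.45 and Nsdhl by 0.85 (2.18% of all genes). The response to BRD-K62233722 was larger there for Cyp51 by 0.75, Msmo1 by 1.04 and Nsdhl by 0.67 (0.102%). Without a batch term none of these differences for either compound was called. For hydroxamic acids the difference was 0.22 for Cyp51, 0.34 for Msmo1 (17.7% higher) and -0.70 for Hsd17b7 (14.4% lower), and for anilides it was 0.69 for Lss (5.85% higher). At 24 h hydroxamic acids gave 0.47 for Hsd17b7 and 0.35 for Sc5d (17.6% higher) and -0.29 for Ebp (18.2% lower). Anilides at 24 h gave 0.53 for Sc5d (13.3% higher) and -0.48 for Cyp51, -0.74 for Lss, -0.61 for Msmo1 and -0.52 for Nsdhl (14.5% lower). Chaetocin at 24 h gave 0.50 for Nsdhl, from -0.27 in αTC1 and -0.77 in βTC3 (12.7% higher).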

How the results depend on the processing

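Counts of called genes among the 8 were refitted at 6 and 24 h for hydroxamic acids, anilides, their difference, BIX-01294, chaetocin and BRD-K62233722. They kept within 1.5 times their value under centring, plate as a random block, a filter on low genes and quantile normalization. The same held with the mean of probe sets, each compound of a class left out, or the αTC1 arrays with Ins2 left out. That last setting was chosen after seeing the data. Counts for cyclic tetrapeptides, and for other single compounds against DMSO, were not refitted under these settings. Of 2247 checks of single genes 2066 kept direction and call, 180 lost the call and 1 turned: Sc5d for hydroxamic acids minus anilides in αTC1 at 24 h was 0.0071 without a batch term.

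Dropping the batch term moved 23 of 51 counts. For BIX-01294 in βTC3 at 6 h it gave 1. For BRD-K62233722 at 6 h it gave 3 in αTC1 and 0 in βTC3. For DMSO, 6 h minus 1 h, it gave 0 in both lines. For chaetocin in βTC3 it gave 3 at 6 h and 2 at 24 h. For hydroxamic acids in αTC1 at 24 h it gave 3, and for anilides 1 in αTC1 and 1 in βTC3 at 6 h and 3 in βTC3 at 24 h. For hydroxamic acids minus anilides at 24 h it gave 5 in αTC1 (5 higher and 0 lower, against 1 and 2 with the term) and 1 in βTC3. For 24 h minus 6 h it gave 0 for BIX-01294 in βTC3, 0 for BRD-K62233722 in αTC1, 3 for hydroxamic acids and 2 for anilides in βTC3. Between lines it gave 0 for BIX-01294, 0 for BRD-K62233722, 1 for hydroxamic acids and 0 for anilides at 6 h, and 0 for chaetocin and 3 for anilides at 24 h. The cause was not tested.

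Fitting only the groups compared gave 1 for BRD-K62233722 in βTC3 at 6 h and 1 for hydroxamic acids minus anilides in αTC1 at 24 h. Leaving out batches (chosen after seeing the data) moved 10 of 162 counts. It gave 0 for BRD-K62233722 in βTC3 at 6 h (without batch 4 or 5), 5 and 3 for chaetocin in αTC1 at 24 h and 6 h (without batch 6), and 1 or 2 for anilides at 6 h in αTC1 (without batch 4) and βTC3 (without batch 5). For hydroxamic acids minus anilides at 24 h it gave 1 (without batch 4 or 6) and 5 (without batch 7) in αTC1 and 4 in βTC3 (without batch 7).

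Leaving out replicates gave, at 6 h, 0 to 2 for BRD-K62233722 in βTC3, 4 to 5 for it in αTC1, 3 to 6 in αTC1 and 4 in βTC3 (6 with all) for chaetocin, 5 to 6 in αTC1 and 3 to 4 in βTC3 for BIX-01294, 2 to 3 in αTC1 and 3 to 4 in βTC3 for anilides, and 6 to 7 for hydroxamic acids minus anilides in βTC3. At 24 h it gave 1 to 5 in αTC1 and 2 to 5 in βTC3 for chaetocin, 5 to 7 in αTC1 and 6 to 7 in βTC3 for BIX-01294, 4 to 5 in αTC1 and 4 to 6 in βTC3 for hydroxamic acids, 6 to 7 for anilides in βTC3, and 1 to 3 for hydroxamic acids minus anilides in αTC1.

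With the replicate number as a block among compound arrays, the counts for hydroxamic acids minus anilides were 6 in αTC1 and 7 in βTC3 at 6 h and 3 and 2 at 24 h, as without it. The block ended 4 calls of pairs at 10 µM and moved 2 counts of pairs at 24 h, to 2 for ITF-2357 minus pyroxamide in βTC3 and to 1 for zebuarine minus 5-azadeoxycytidine in αTC1. The numbers do not pair these arrays.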
